A study of Andrographis paniculata with 12 samples.

Results

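The leaf transcriptome of Andrographis paniculata before hormone treatment was described from a single column of the deposited expression table, the one for 0 h of methyl jasmonate (MeJA). Members were the assembled genes whose level in that column was 1 or more, and 24904 of 32064 genes (77.7%) met this limit. Another 6045 genes lay above 0 but under 1, and 1115 were listed at 0. The lowest level inside the limit was 1 and the highest level outside it was 0.9997, so the limit cuts through a continuous range of levels.

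Andrographis paniculata (kalmegh) is a medicinal herb whose leaves store bitter diterpene lactones. MeJA is the volatile ester of jasmonic acid, a hormone of wounding and defence. In the series, leaf samples are labelled by the hours of MeJA induction, 0, 12, 24 or 48, with 3 biological replicates at each of the 4 times and 12 samples in all. The labels used here give the tissue (leaf) and the induction stage, and neither a cultivar, a plant age, a MeJA dose nor a clock time.

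Every level below is the authors' own mean of the 3 replicates, in the normalised units of their table. No SD, interval or test can be attached to such a mean, and the depth behind it is unknown. Whether the unit divides by transcript length is not given in the sources used here, so all orders and ratios among genes hold on the deposited scale alone. A gene here is a cluster of assembled transcripts, and it carries the name of its best Swiss-Prot hit, which states similarity and not identity. One gene of the plant may be split over several clusters, or several copies merged in 1. Since whole leaves were used, few cells of a type cannot be told apart from little RNA per cell.

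A green leaf spends much of its messenger RNA on photosynthesis. The nuclear genome encodes the small subunit of Rubisco, the enzyme that fixes CO2, together with the chlorophyll-binding antenna proteins and many peripheral subunits of the photosystems, while the plastid genome encodes the reaction centres and the large subunit of Rubisco. Plastids also house the methylerythritol phosphate (MEP) pathway, which supplies the isoprenoid units of carotenoids, of the chlorophyll side chain and of diterpenes such as andrographolide. Phenylpropanoids (lignin, flavonoids) and defence proteins complete the set of enzymes whose base level is described here.

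The summed level was held by a small part of the genes. The median level of the 24904 genes was 7.65, with quartiles of 2.98 and 20.2. The 51 most abundant genes made up 25% of the summed level, 510 genes 50%, 2975 genes 75% and 8298 genes 90%. Thus 2.05% of the genes carried 50% of the sum, a number that became 791 genes when the 10 most abundant were set aside. Levels of at least 1000 were reached by 91 genes, which held 30.99% of the sum, and levels of at least 100 by 1225 genes, which held 62.0%. The highest level was 2579 times the median.

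**Figure D1:**
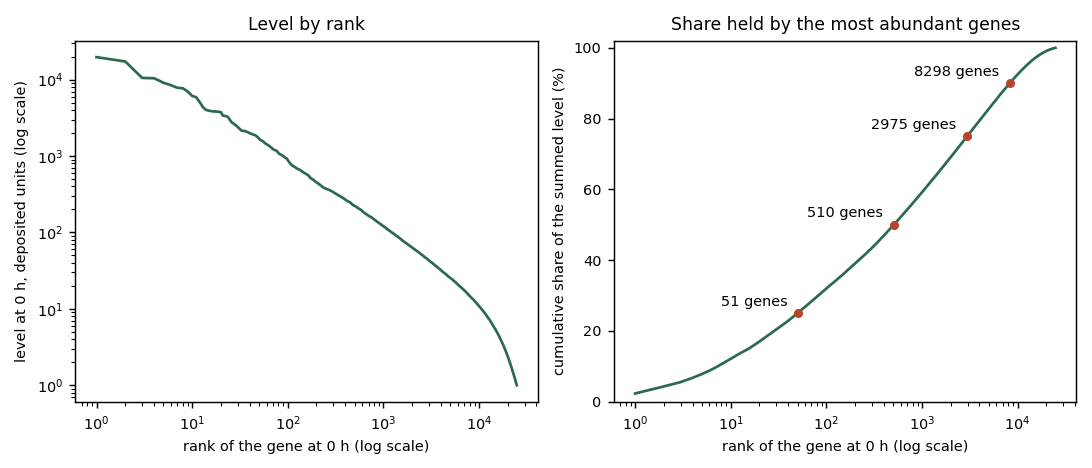
Level at 0 h against the rank of the gene (left, both axes logarithmic, deposited units) and the cumulative share of the summed level against rank (right, rank axis logarithmic), for the 24904 genes at 1 or more. Red circles mark the ranks at which 25, 50, 75 and 90% of the sum are reached, at 51, 510, 2975 and 8298 genes.

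Among the genes with a Swiss-Prot name, photosynthesis took most of the highest ranks. Of the 30 most abundant named genes, 9 belonged to the photosystems and electron transport, 7 to the light-harvesting antenna, 2 to the Calvin cycle and CO2 supply and 1 to the Rubisco small chain, together 19. The highest level of any gene was that of a Rubisco small chain (TR76467|c8_g3), at 19739 or 2.29% of the sum. An antenna protein similar to tobacco chlorophyll a-b binding protein (TR17188|c7_g3) stood at 10556, and PsbR, a small subunit of photosystem II (TR38528|c4_g2), at 10441. Rubisco activase (TR86921|c9_g1), which frees Rubisco of inhibitory sugar phosphates, had a level of 7713. The first photosystem I subunit in the order was PsaK (TR65977|c0_g3), at 4013, below each of these 4 genes.

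The other 11 of the 30 were of mixed function. A non-specific lipid-transfer protein (TR23777|c5_g8), a secreted carrier of lipids found in the epidermis and cuticle, was at 6123. The vacuolar aquaporin TIP1-1 (TR58607|c6_g9), a water channel of the tonoplast, was at 3864. Metallothionein-like proteins, small cysteine-rich proteins that bind metal ions, gave 3 of the 30 genes, at 3837 (TR72653|c0_g2), 3173 (TR83785|c1_g3) and 2520 (TR58311|c0_g1). The metal-binding class held 1.37% of the sum, and 0.0610% when the nucleotide and the protein search had to give the same Swiss-Prot entry. Here and below, that setting keeps genes without a Swiss-Prot name and drops a named gene that has no protein hit. Its shares are of the sum over the genes kept. A hit to 2-hydroxyisoflavanone dehydratase (TR18910|c4_g2), known from legumes where it takes part in isoflavone synthesis, was at 3382. A transporter similar to Arabidopsis NPF2.11 (TR86982|c9_g1), which moves glucosinolates in Arabidopsis, was at 3329. An auxin-binding protein of the germin type (TR86742|c0_g1), named after a peach protein, was at 2681, and a proline-rich protein of the cell wall (TR81317|c9_g1) at 2109. The remaining pair, hits to the reading frames ART2 (TR85667|c27_g2, 7841) and ORF91 (TR85658|c8_g15, 2484), have no described protein and are taken up below.

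**Figure D2:**
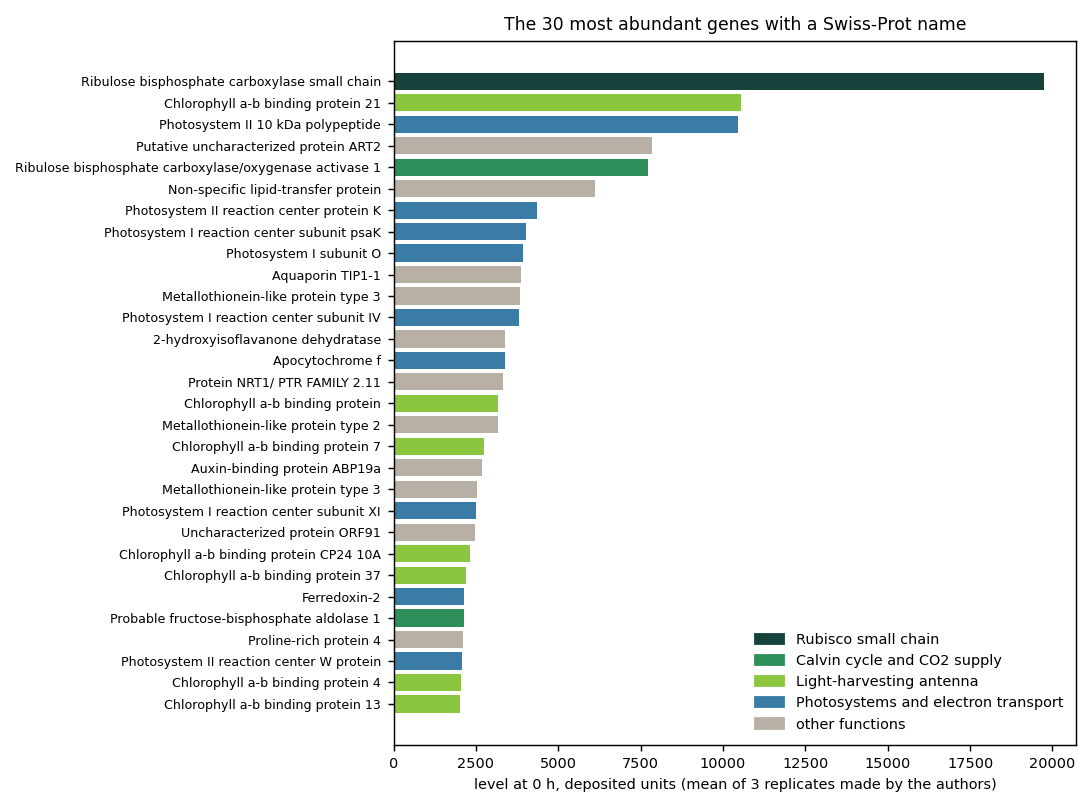
Level at 0 h (horizontal axis, linear, deposited units) of the 30 most abundant genes with a Swiss-Prot name, coloured by function. The Rubisco small chain stands at 19739, followed by an antenna protein at 10556 and PsbR at 10441, and 19 of the 30 bars carry a colour of photosynthesis.

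Photosynthesis as a whole was carried by few, very abundant genes. Its 4 classes (Rubisco small chain, antenna, photosystems and electron transport, Calvin cycle and CO2 supply) held 213 genes, which were 0.855% of the genes and 16.4% of the summed level. The share was 12.2% without the 10 most abundant genes and 21.6% of the sum over named genes. Photorespiration, which recycles the product of Rubisco's reaction with oxygen, and chlorophyll synthesis added 46 and 28 genes and brought the share to 17.4%. With agreement of both searches chlorophyll synthesis held 0.204% in place of 0.358%. In photorespiration the highest levels were those of catalase (TR74589|c3_g3, 1380), glutamate-glyoxylate aminotransferase (TR79860|c0_g2, 622) and glycolate oxidase (TR16371|c2_g1, 595). In chlorophyll synthesis they were the oxidative cyclase that closes the fifth ring (TR43378|c0_g2, 978), the ChlH subunit of magnesium chelatase (TR67008|c0_g2, 328) and glutamyl-tRNA reductase (TR72103|c1_g1, 284), the control step of the pathway.

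The Rubisco small chain rested on 1 assembled gene, which gave 99.9% of its class, and the next gene of that name was at 10.5 (TR53724|c0_g1). In the Calvin cycle class, Rubisco activase gave 40.6% of the level of 62 genes. A plastid fructose-bisphosphate aldolase (TR23840|c2_g1) followed at 2141 and beta carbonic anhydrase (TR74163|c0_g2), which supplies CO2 from bicarbonate, at 1694. All 30 antenna genes in the table were at 1 or more, with a median of 239, and 12 of them were at 1000 or more. After the leading gene came antenna proteins at 3181 (TR39102|c0_g1) and 2751 (TR50371|c2_g1), and then CP24 (TR21992|c0_g1), a minor antenna protein of photosystem II, at 2311.

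The nuclear subunits of both photosystems stood at similar summed levels on the deposited scale. Photosystem I hits gave 15 genes with a sum of 20764 and a median of 1087, and photosystem II hits 16 genes with a sum of 22328 and a median of 832. In photosystem I, the 8 most abundant genes matched 8 different subunits between 1087 and 4013, and the other 7 genes lay between 1.85 and 31.3. The 8 included PsaO (TR85656|c1_g1, 3936), PsaE (TR20519|c1_g6, 3803), PsaL (TR20804|c1_g1, 2498), PsaD (TR87140|c3_g1, 1928) and PsaF (TR25577|c0_g1, 1872). In photosystem II, PsbR gave 10441 of the 22328. Below it lay PsbW (TR47312|c0_g1, 2068) and, among others, the oxygen-evolving enhancer proteins, extrinsic subunits that stabilise the water-splitting cluster (TR14052|c5_g1 for protein 2, at 1669, and TR77589|c1_g1 for protein 3, at 1401). Among the mobile carriers, ferredoxin (TR32398|c2_g1, 2145) and plastocyanin (TR45362|c2_g1, 1993) were close in level, and the Rieske iron-sulfur protein of cytochrome b6-f (TR43323|c4_g2), which sits between them and photosystem II, was at 670. The nuclear subunits of the chloroplast ATP synthase summed to 1459 over 5 genes, led by the delta chain (TR29950|c1_g2, 723). PsaD, PsaF, the enhancer proteins, plastocyanin, the Rieske protein and the delta chain were chosen after their values were seen.

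Hits to the listed plastid-encoded proteins were low beside the nuclear ones. Of 69 genes named after these proteins, 59 were at 1 or more, and they held 1.13% of the sum. The list leaves out the reading frames ORF91 and ycf68, which come from plastid genomes but have no described protein, and with their 11 genes the share was 1.86%. Within the list, PsbK of photosystem II (TR65657|c14_g2, 4353) and apocytochrome f (TR85691|c8_g1, 3381) were the most abundant. The other 57 genes held 0.235% with a median level of 6.65, or 0.963% once ORF91 and ycf68 hits were added, while 113 genes for nuclear-encoded Rubisco small chain, antenna and photosystem proteins held 13.1% with a median of 165. The Rubisco large chain, the only gene of that name, was at 47.5, against 19739 for the small chain. The D1 protein, the fast-turning core of photosystem II, reached 46.95 (TR35878|c0_g1). Both were chosen after their values were seen. Poly(A)-tailed RNA was selected for these libraries, and plastid messenger RNA mostly has no such tail, so these levels do not give the abundance of plastid transcripts in the leaf.

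Several of the most abundant genes have no name. Of the 100 most abundant genes, 78 had a Swiss-Prot name, 5 only a TrEMBL hit and 17 no hit. Over all 24904 genes, 16680 had a Swiss-Prot name and held 75.8% of the sum, 4193 with a TrEMBL hit alone held 10.8%, and 4031 with no hit held 13.3%. The gene at rank 2 (TR44405|c11_g2) had no hit and a level of 17306, or 2.005% of the sum. TR65391|c4_g1 at 9141, TR53597|c10_g1 at 8472, TR16432|c1_g1 at 7005, TR23685|c1_g1 at 5094 and TR21389|c0_g1 at 3828 had no hit either. For TR44405|c11_g2 the table lists a predicted protein, and for the other 5 it lists none.

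Hits to reading frames without a described protein belong beside these genes. They were 22 genes with 1.68% of the sum, and ART2 gave 54.01% of it. ART2 is a reading frame of yeast that lies opposite the ribosomal RNA genes, and a second cluster of the same assembly component (TR85667|c27_g6, chosen after its value was seen) stood at 3752 with an uncharacterised TrEMBL hit alone. ORF91 and ycf68 hits come from the plastid genome of other plants, and ORF91 named both of the next genes, at 2484 and 1603 (TR85658|c8_g4). With the requirement that the nucleotide and the protein search gave the same entry, the class held 0.0512% of the sum over the genes kept, in place of 1.68%. A part of ribosomal RNA in these levels was not tested.

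**Figure D3:**
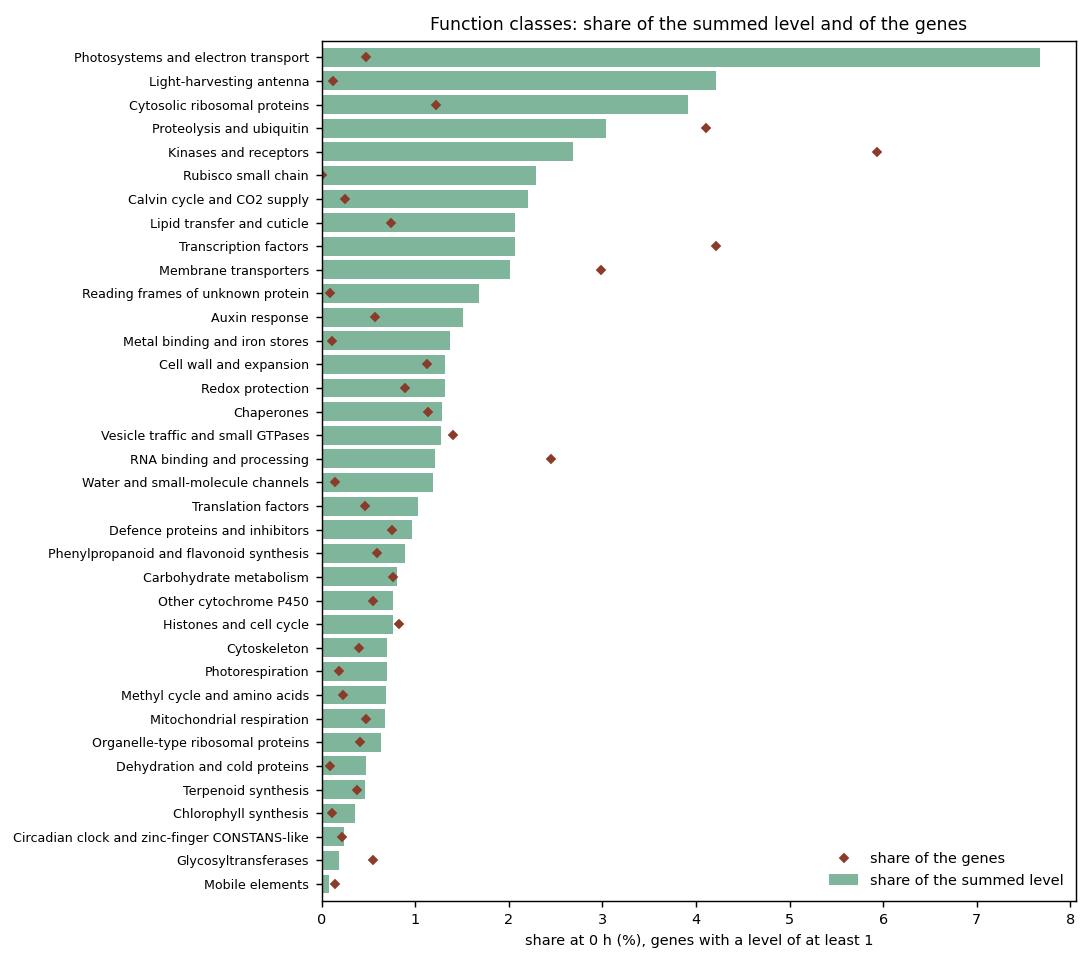
Share of the summed level at 0 h (green bars) and share of the genes (brown diamonds) for 36 function classes, among the 24904 genes at 1 or more. Photosystems and electron transport lead with 7.68% of the level from 0.478% of the genes, while kinases and receptors hold 2.69% of the level from 5.93% of the genes.

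Beyond photosynthesis, protein synthesis took the next share. Cytosolic ribosomal proteins held 3.91% of the sum in 304 genes, with a median of 80.9. The highest was L31 (TR20682|c0_g1) at 663, or 1.97% of the class, and none reached 1000. In the antenna class the leading gene gave 29.0%. For 50% of the class, 59 of the 304 ribosomal protein genes were needed, and 4 of the 30 antenna genes. Ribosomal proteins of the organelle type held 0.638%, led by plastid L28 (TR18966|c0_g3) at 361. Translation factors held 1.02%, led by the translationally controlled tumour protein (TR13466|c2_g1), a conserved growth-related protein, at 1582, and by elongation factor 1-alpha (TR65377|c2_g1), which brings aminoacyl-tRNA to the ribosome, at 937.

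Regulatory classes had many genes and a smaller share of the sum than of the genes. Kinases and receptors were 1478 genes (5.93%) with 2.69% of the sum and a median of 7.38. The class goes by name and also holds metabolic kinases, and its top gene was an adenylyl-sulfate kinase (TR64575|c2_g1, 438), an enzyme of sulfur assimilation. Transcription factors were 1050 genes (4.22%) with 2.06% and a median of 7.73, and RNA binding and processing 611 genes (2.45%) with 1.21%. The medians of kinases and of transcription factors were close to the 7.65 of all genes at 1 or more. Proteolysis and ubiquitin held 3.04% in 1022 genes, led by a polyubiquitin gene (TR21161|c82_g1) at 1335, the source of the tag that marks proteins for breakdown. Membrane transporters held 2.01% in 742 genes, and the NPF2.11-like gene gave 19.2% of it.

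Classes of the leaf surface, water channels and auxin response stood above their share of genes, and the cell wall class was close to its share. Lipid transfer and cuticle held 2.06% of the sum in 0.739% of the genes, and after the leading lipid-transfer protein came a pair of pEARLI1-like proteins, cell wall proteins with a lipid-transfer domain, at 1243 (TR73207|c14_g18) and 1173 (TR73207|c14_g9). Aquaporins and other channels held 1.18% in 0.145% of the genes, with plasma membrane aquaporins at 1498 (TR79232|c1_g2) and 651 (TR63908|c5_g2) after TIP1-1. Auxin-response genes held 1.51% in 0.570% of the genes, among them the repressor IAA14 (TR32361|c7_g1, 1186) and an auxin-induced protein of the SAUR type (TR81280|c1_g1, 1033). The cell wall class held 1.32% in 1.13% of the genes, with a median of 7.10, and its leading gene gave 18.5% of its level. In this class an expansin (TR86988|c3_g1), which loosens walls during growth, was at 1000. Alpha-tubulin (TR46755|c2_g1), a subunit of microtubules, was at 1185 and led the cytoskeleton class.

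Genes with names of redox protection made up 0.887% of the genes at 1 or more, and dehydration and cold proteins 0.0883%. Redox protection held 1.32% of the sum in 221 genes, led by cytosolic ascorbate peroxidase (TR45820|c1_g1, 739), glutathione S-transferase F10 (TR65634|c1_g1, 591) and peroxiredoxin (TR77643|c1_g1, 567), enzymes that remove peroxides or conjugate toxic compounds. Dehydration and cold proteins held 0.475%, or 0.259% with agreement of both searches, led by RD22 (TR82091|c1_g2, 1339), a marker of drought and abscisic acid in Arabidopsis. Catalase at 1380 stood above each of these genes. S-adenosylmethionine synthase (TR80382|c5_g2), which makes the methyl donor of most methylations, was at 1069.

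Annotated location gave the same picture from another column of the table. Gene ontology terms for the chloroplast were attached to 53 of the 100 most abundant named genes and to 11.8% of all 16680 named genes. Terms for the nucleus were attached to 5 of the 100 and to 21.3% of all. The 1989 genes with a chloroplast term held 26.1% of the summed level. These terms come from the same database hits as the names, so they are no independent measure.

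Enzymes of terpenoid synthesis were present at low to moderate levels. The class held 0.458% of the sum in 95 genes, with a median of 18.7. Its highest gene was an ent-copalyl diphosphate synthase (CPS, TR66725|c19_g3), the enzyme that makes the first cyclic precursor of gibberellins and of labdane diterpenes, at 359 and rank 274 of all genes. In a count by enzyme step, 91 of 123 genes were at 1 or more, beside 77.7% of all genes. That share of all genes is the background for each such count below. The 91 genes summed to 3960. The MEP pathway gave the largest part, 1805 from 20 genes, and the cytosolic mevalonate pathway gave 141 from 12 genes.

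All 7 steps of the MEP pathway had at least 1 gene above the limit, which 77.7% of all genes met. Deoxyxylulose phosphate synthase (DXS), the entry step, summed to 570, with the top gene TR49753|c1_g1 at 259. Hydroxymethylbutenyl diphosphate reductase (HDR), the last step, summed to 540 from 2 genes, with TR51094|c2_g1 at 327. Between them, the reductoisomerase DXR summed to 174, the cyclodiphosphate synthase MDS to 186 and the synthase HDS to 277. The cytidylyl transferase MCT (TR75604|c0_g1, 38.3) and the kinase CMK (TR14286|c0_g2, 19.8), both represented by 1 gene, were the lowest. The first and the last step of the pathway were thus the pair with the highest sums.

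Every step of the mevalonate pathway was below the MEP steps other than CMK and MCT. The highest was HMG-CoA reductase (HMGR), the main control step, with a sum of 46.0 and TR82364|c1_g3 at 32.4. HMG-CoA synthase summed to 38.6 and acetoacetyl-CoA thiolase to 34.8. Mevalonate kinase (TR18700|c0_g1, 7.39), phosphomevalonate kinase (TR74946|c0_g1, 4.48) and diphosphomevalonate decarboxylase (TR52690|c0_g1, 9.64) were each 1 gene under 10. Of 7 HMGR genes in the table, 3 were at 1 or more and 1 was listed at 0.

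After the precursors, the prenyl diphosphate synthases summed to 483 over 13 genes. Isopentenyl diphosphate isomerase (TR66997|c1_g2), which balances the pair of isoprenoid units, was at 133, although its nucleotide and protein searches gave different entries. Geranylgeranyl diphosphate synthase (GGPPS), which makes the precursor of diterpenes, carotenoids and the chlorophyll side chain, summed to 266 over 6 genes, with TR18674|c2_g3 at 100.4. One of the 6 is a hit to the small subunit of a heterodimeric enzyme, a partner of the catalytic subunit (TR65835|c2_g2, 73.2, chosen after its value was seen). Farnesyl diphosphate synthase, the branch point to sterols and sesquiterpenes, summed to 81.0, with TR66694|c1_g2 at 56.9. No gene carried a name of geranyl diphosphate synthase alone.

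The diterpene steps listed were CPS and the enzymes towards gibberellins, and 1 CPS gene gave most of their summed level. Steps from CPS towards labdane lactones were not in the list. CPS summed to 376 over 5 genes, of which TR66725|c19_g3 gave 95.6%, while the other 4 lay between 1.43 and 11.2. The single gene named kaurene synthase (TR39965|c0_g1), the next enzyme towards gibberellins, was at 0.425 and so under the limit. Kaurene and kaurenoic acid oxidases, which follow it, summed to 10.1 with TR44407|c0_g1 at 8.14. Synthases of volatile mono- and sesquiterpenes were low, with 3 of 8 genes at 1 or more, 2 at 0 and a sum of 72.9. The highest was a nerolidol synthase (TR24462|c6_g2) at 40.2.

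Sterols and carotenoids had a gene at each of their steps. In the sterol and triterpene branch the sum was 340 over 13 genes, led by a sterol methyltransferase (TR32400|c3_g1), which adds the side-chain methyl of plant sterols, at 121. Squalene synthase summed to 52.7, squalene monooxygenase to 73.1, cycloartenol synthase to 50.2 and the lupeol and amyrin synthases, which make triterpenes, to 20.9. Carotenoid enzymes summed to 564 over 21 genes, and beta-carotene hydroxylase (TR76505|c2_g1), which makes zeaxanthin, gave 206 of it. Phytoene synthase, the entry step, summed to 34.8, the desaturases PDS and ZDS to 49.6 and 32.2, and the lycopene cyclases to 72.5. Geranylgeranyl diphosphate reductase (TR76497|c0_g1), which makes the phytyl side chain of chlorophyll, was at 163.

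**Figure D4:**
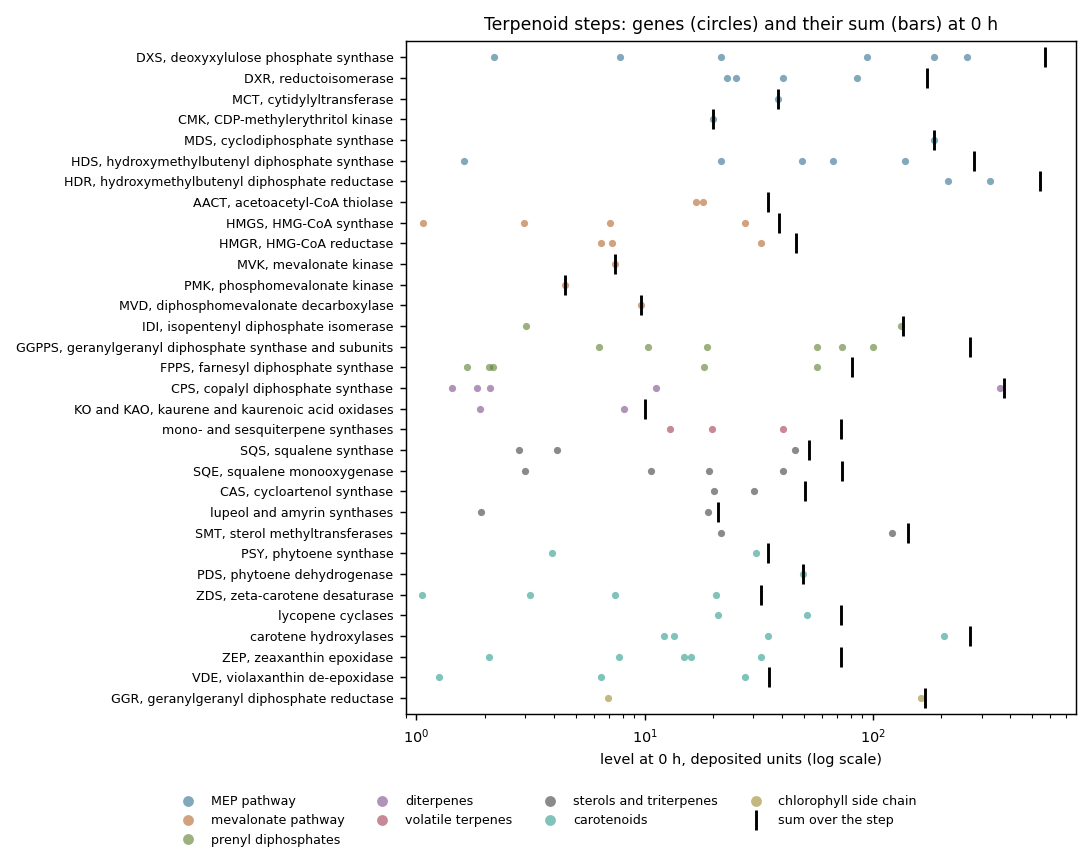
Level at 0 h (logarithmic axis, deposited units) of the genes of each terpenoid step (circles, coloured by branch) and the sum over the step (black bars), for genes at 1 or more. MEP steps reach 570 in sum and mevalonate steps 46.0, and in the CPS step 1 gene at 359 stands apart from 4 others at 11.2 or less.

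Phenylpropanoid and flavonoid enzymes held 0.894% of the sum in 148 genes. The hit to 2-hydroxyisoflavanone dehydratase gave 43.8% of the class, and a second gene of that name (TR32375|c3_g3) was at 319. These proteins belong to a family of carboxylesterases, and neither gene is part of the step counts that follow. In those counts, 95 of 141 genes were at 1 or more, beside 77.7% of all genes. The 95 genes summed to 3112, or 1826 when the nucleotide and the protein search had to give the same entry.

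The 3 steps shared by all phenylpropanoids summed to 1151 over 15 genes. Cinnamate 4-hydroxylase (C4H) was the highest at 721 from 4 genes, with TR70016|c0_g4 at 309, and at 292 when both searches had to give the same entry. Phenylalanine ammonia-lyase (PAL), which draws carbon from phenylalanine into the pathway, summed to 196 and was carried by 1 of its 6 genes (TR15417|c2_g2, 163). 4-Coumarate-CoA ligase (4CL) summed to 234, with TR45425|c0_g2 at 176.

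Lignin steps summed to 937 over 42 genes. The hydroxylase C3'H (TR16439|c2_g7, 204) and cinnamoyl-CoA reductase (CCR, 220 over 8 genes, top TR74457|c0_g2 at 61.2) were the highest. Caffeoylshikimate esterase summed to 146 over 10 genes and cinnamyl alcohol dehydrogenase, the last step to monolignols, to 130 over 5. The top gene of that last step (TR26635|c1_g6, 41.5) is a hit to a probable mannitol dehydrogenase, a relative of these enzymes, and the step summed to 71.4 with agreement of both searches. Ferulate 5-hydroxylase, the entry to syringyl lignin, summed to 7.59 and laccases, which polymerise lignin in the wall, to 18.5, with 4 of 11 laccase genes at 1 or more.

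The flavonoid branch summed to 1024 over 38 genes, and its steps ranged from 10.04 to 493. Chalcone isomerase summed to 209 and the flavonoid hydroxylases F3'H and F3'5'H to 493. The highest hydroxylase, TR26978|c11_g1 at 230, shares an assembly component with the most abundant cytochrome P450 of the leaf (TR26978|c11_g4, a CYP736A12 hit, 1747), and the step summed to 36.96 when both searches had to give the same entry. Chalcone synthase, the entry step, summed to 26.9 with TR69279|c0_g1 at 23.8. Flavanone 3-hydroxylase was at 17.2 (TR82302|c0_g1), flavonol synthase summed to 10.04, dihydroflavonol reductase to 10.8, and anthocyanidin synthase (leucoanthocyanidin dioxygenase) to 13.5, with 5 genes that were all under 5. No gene was named flavone synthase. Flavonoid glucosyltransferases, which attach sugars, summed to 243, of which TR81352|c3_g1 gave 154.

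Of 286 defence genes in the 20 steps examined, 224 were at 1 or more, beside 77.7% of all genes. These 224 had a median of 6.72 and a sum of 8876. A single family carried much of that sum. MLP-like and major latex proteins, relatives of the pathogenesis-related PR-10 and Bet v 1 proteins, summed to 4480 over 12 genes. The most abundant were TR66722|c5_g2 at 1300 and TR74138|c1_g1 at 1195, and hits to the kiwifruit member Kirola stood at 582 (TR44459|c0_g3) and less. Taking only the top gene of each step, the 20 steps summed to 3375.

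Enzyme families listed as acting on microbes summed to 2219 over 124 genes. The list goes by family name, and the sum is no measure of antimicrobial enzymes. A chitinase-like protein (TR58447|c7_g1), of a kind that in Arabidopsis acts in cell wall formation, was at 549 and gave 95.0% of the chitinase step, and the other 6 chitinase genes were each under 10. Beta-1,3-glucanases, which cut a glucan found in fungal walls and in plant callose, summed to 851 over 51 genes, with TR85661|c0_g3 at 253 and a median of 3.89. Secretory peroxidases summed to 205 with TR70594|c3_g1 at 86.5, and subtilisin-like proteases to 585 over 48 genes with TR23971|c0_g1 at 98.8.

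The 3 steps of enzymes known to act against herbivores summed to 353 over 21 genes. Polyphenol oxidase, which browns wounded tissue, had 1 of 4 genes at 1 or more (TR81983|c2_g2), at 1.82. Threonine deaminase, an enzyme of isoleucine synthesis that in tomato also degrades threonine in the insect gut, summed to 44.2 with TR32416|c5_g3 at 33.1. Beta-glucosidases, which release toxic aglycones, summed to 307 over 17 genes with TR32989|c0_g1 at 52.7.

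Inhibitors, antimicrobial peptides and other defence proteins outside the MLP-like family summed to less. Cysteine proteinase inhibitors summed to 543 over 6 genes, led by TR27652|c1_g4 at 281. Serine protease inhibitors of the Kunitz and related types, which block digestion in insects, summed to 186 over 8 genes, led by a miraculin hit (TR44291|c4_g3) at 81.2. Defensins and snakins, antimicrobial peptides, summed to 160 with TR25157|c0_g2 at 99.6. Both PR-1 genes, markers of salicylic acid signalling in other plants, were above the limit, at 56.9 (TR36497|c0_g1) and 48.7. Thaumatin-like proteins summed to 88.2 and germin-like proteins to 118.

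The supply of jasmonate itself had a gene above the limit at each step examined, a limit that 77.7% of all genes met. 13-Lipoxygenase, the entry step, summed to 266 over 6 genes with TR60361|c4_g4 at 178, and 9-lipoxygenase, which leads to other oxylipins, to 91.4. Allene oxide synthase summed to 74.6 and allene oxide cyclase to 27.0, the lowest of the steps that make the hormone precursor. Oxophytodienoate reductase summed to 131 with TR35545|c2_g2 at 106. With agreement of both searches, 13-lipoxygenase summed to 82.5 and allene oxide cyclase to 6.78. The JAR1-type synthetase (TR14300|c0_g2), which joins jasmonate to isoleucine to give the active hormone, was at 34.1. Of 20 genes of the TIFY family, which holds the JAZ repressors of jasmonate responses, 10 were at 1 or more, 3 were at 0 and the highest was at 77.2 (TR26630|c9_g6, chosen after its value was seen).

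**Figure D5:**
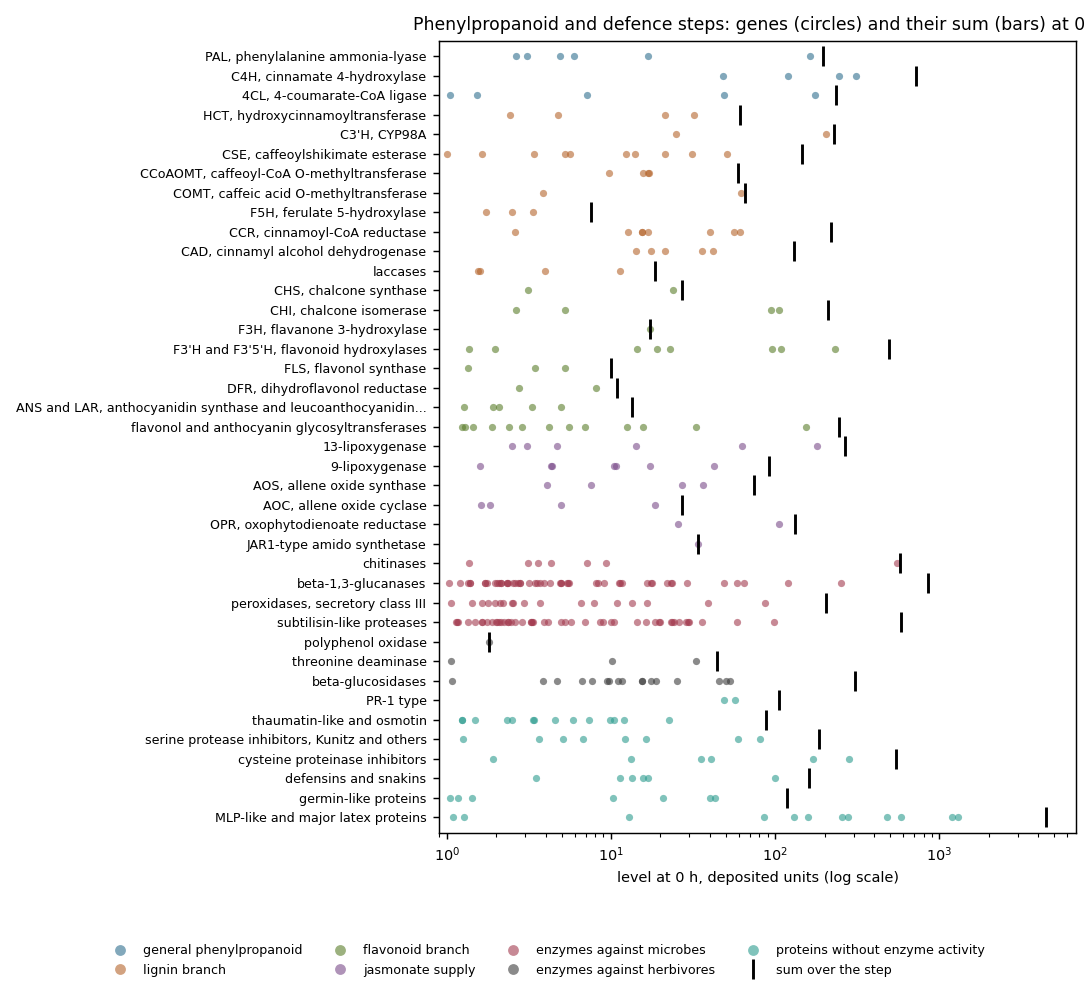
Level at 0 h (logarithmic axis, deposited units) of the genes of each phenylpropanoid and defence step (circles, coloured by branch) and the sum over the step (black bars), for genes at 1 or more. MLP-like proteins reach a sum of 4480 and C4H one of 721, while polyphenol oxidase is at 1.82 and ferulate 5-hydroxylase at 7.59.

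Several genes with names of regulators or enzymes were among the 3 most abundant of their class. A MADS-box factor similar to tomato JOINTLESS (TR16438|c1_g1), known there for the abscission zone of the flower stalk, was at 1158. The next of the class named transcription factors were RAP2-4 of the ethylene-response family (TR74157|c6_g7), at 224, and B-box protein 24 (TR81336|c0_g2), a factor of light signalling, at 213. Some regulators were counted in other classes, such as IAA14 at 1186 and a CONSTANS hit (TR62558|c0_g1) at 256. Both were chosen after their values were seen. A hit to rice HEADING DATE 3A (TR49666|c2_g1), a mobile flowering signal made in rice leaves, was at 1449. A cyclin-dependent kinase D-1 hit (TR74130|c2_g1) was at 1277 and led the cell cycle class, where histone H2B (TR48566|c0_g2) followed at 339. LHY (TR49676|c1_g3), a morning component of the circadian clock in Arabidopsis, was at 383. An iridoid glucosyltransferase hit (TR81290|c5_g2) at 362 gave 22.4% of the level of the other glycosyltransferases. An isopiperitenol dehydrogenase hit (TR24706|c0_g3), an enzyme of menthol synthesis in mint, was at 1179.

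Of the tissue marker lists, that of the leaf mesophyll held the largest share of the sum. Mesophyll markers (Rubisco small chain, antenna proteins, Rubisco activase, carbonic anhydrase) had 51 of 55 genes at 1 or more and held 7.83% of the sum. Epidermis and cuticle markers had 61 of 80 genes and 1.21% of the sum, most of it from the leading lipid-transfer protein. Guard cell and stomata markers summed to 688 over 34 of 41 genes, vascular markers to 206 over 18 of 22, and trichome markers to 61.6 over 6 of 6. The guard cell list goes by name and was led by hits to ASPARTIC PROTEASE IN GUARD CELL 1, such as TR31704|c0_g1 at 138 and TR85668|c3_g4 at 124. This pair was chosen after its values were seen. Several assembled genes carried that one name, so the sum is no measure of guard cells. Histones and other names listed as markers of dividing cells summed to 2782 over 51 of 58 genes. The list goes by name: histones lead it, among them H3.3, a variant also made outside cell division, and it caught a calcyclin-binding protein (TR76358|c0_g1, 66.3). The H3.3 and calcyclin-binding genes were singled out after their values were seen, and the sum is no measure of dividing cells. Root markers summed to 27.8 over 4 of 4 genes, led by SCARECROW (20.3, TR37507|c0_g1), a factor also known from the leaf bundle sheath. The only flower marker found, GLOBOSA (TR47141|c0_g2), was at 2.18. Both genes were chosen after their values were seen. The counts at 1 or more do not set the leaf lists apart from root and flower, since 77.7% of all genes were at 1 or more. Median levels over the genes at 1 or more were 88.7 for mesophyll, 18.4 for dividing cells, 16.5 for epidermis and cuticle and 7.61 for trichomes. They were 6.54 for vascular tissue, 4.50 for guard cells and stomata, 3.09 for root and 2.18 for the only flower gene. The median of all genes at 1 or more was 7.65, and no difference between lists was tested. No gene matched the list of virus and fungal names.

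The same genes can be followed to the other columns, which are means of other samples and allow no test either. Of the 100 most abundant genes at 0 h, 30 were also among the 100 most abundant at 12 h, 36 at 24 h and 32 at 48 h. These 100 genes held 31.9% of the column sum at 0 h and 24.4%, 22.7% and 20.5% at the later times. For the 30 most abundant the shares were 20.3% at 0 h and then 21.7%, 18.3% and 15.7%. Both sets were picked for a high level at 0 h, so their shares in the other columns are a description alone. The 4 classes of photosynthesis held 16.3%, 1.87%, 4.22% and 5.002% of the column sums over the same order of times, all genes included. The share of cytosolic ribosomal proteins was 3.90%, 3.87%, 2.01% and 1.76%, and that of the cell wall class 1.32%, 0.610%, 0.431% and 0.292%. Metallothioneins and other metal-binding proteins as a class lay between 1.15% and 1.37%, with the limit given above on agreement of both searches. Its leading genes moved in different directions. TR83785|c1_g3 was at 3173, 290, 1073 and 602, TR72653|c0_g2 at 3837, 4924, 4992 and 4900, and TR58311|c0_g1 at 2520, 3481, 3732 and 4560. MLP-like proteins summed to 4481, 3912, 3290 and 4278. The leading lipid-transfer protein was at 6123, 8025, 7251 and 16560, and TIP1-1 at 3864, 6118, 5117 and 3788.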

How the data were processed

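Per the labels' protocols, total RNA of leaves was extracted with Trizol, poly(A) RNA was enriched on Dynabeads, and strand-specific libraries were read in pairs on an Illumina HiSeq instrument. Tools listed in the submitters' processing notes, with no roles, are RSEM 1.2.19, Trimmomatic 0.33, FastQC 0.11.3 and CASAVA. For the assembler, the aligner and the reference the status is: not given in the sources used here. What the authors deposited is 1 table with a normalised signal per assembled gene and time. Its values are means over the 3 replicates made by the authors: all of the values at 0 h are whole multiples of 0.001 divided by 3, within 0.01 of a step. The unit of the signal (TPM, FPKM or another) is likewise not given, nor are read counts, so depth per sample is unknown and precision cannot be stated. The 0 h column sums to 866243, of which 99.6% lies in genes at 1 or more. In the table, 1 row was emptied and is not analysed here.

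Genes at 1 or more at 0 h were ranked and summed with Python 3.11.15, pandas 2.3.3 and numpy 2.4.6, and plotted with matplotlib 3.10.9. Shares are percent of the sum over these genes, and in an alternative with another set of genes, of the sum over that set. Each gene was put in the first of 36 function classes whose pattern its Swiss-Prot description matched, and 75 enzyme or protein steps were matched in the same way. No pseudocount, test or fold was used. The summing was tested on simulated data. The named genes are the 30 most abundant with a Swiss-Prot name, the 3 most abundant of each class, the most abundant of each step, and genes without a hit among the 30 most abundant of all; any other gene is marked as chosen after its value was seen. The members and lists were chosen with earlier results of these data known. After the descriptions and levels were read, patterns that caught wrong names were corrected and 7 classes added; the patterns as first written were kept as an alternative. The other alternatives were other level limits, names from TrEMBL, another denominator, the 10 most abundant genes left out, 1 gene per Swiss-Prot entry, the reverse class order, the top gene of each step, levels summed per assembly component, agreement of both database searches, and ORF91 and ycf68 hits counted as plastid-encoded. Values at 12, 24 and 48 h are set beside a few levels without a test.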

Additional observations from a re-analysis of the deposited data

How the results depend on the processing

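An alternative value was taken as close when it lay within 1.5 times of the reported one, since no replicate spread was at hand. The shares of photosynthesis, cytosolic ribosomal proteins, defence proteins, phenylpropanoid and terpenoid enzymes stayed within that range under each alternative run. The share of genes without a name was 24.2% by Swiss-Prot alone and 13.3% with TrEMBL names added, since that setting names more genes. The number of genes for 50% of the sum was 791 without the 10 most abundant genes, against 510. With the top gene of each step alone, which drops all others, the defence steps summed to 3375 in place of 8876 and the phenylpropanoid steps to 1679 in place of 3112. The phenylpropanoid steps summed to 1826 when both database searches had to give the same entry. Among single classes, the Calvin cycle share was 3.83% in place of 2.20% with the class order reversed, and histones and cell cycle 1.46% in place of 0.760% with the patterns as first written. With agreement of both searches the share was 0.0610% in place of 1.37% for metal-binding proteins and 0.204% in place of 0.358% for chlorophyll synthesis. It was 0.455% in place of 0.698% for the cytoskeleton class and 0.259% in place of 0.475% for dehydration and cold proteins. The shares with agreement are of the sum over the genes kept. With ORF91 and ycf68 hits added, plastid-encoded entries held 1.86% in place of 1.13%. Of the 78 step sums, pathway totals included, agreement of both searches moved 21 by more than 1.5 times, the top gene alone 39, the limit of 10 moved 12 and the patterns as first written moved 4. The alternative that asked for a strong database hit was not run, because the table used here gives neither an E value nor an identity. No paired analysis was possible because the deposited columns are means over the replicates, and for the same reason no replicate could be left out. Differences in rank between genes of close level cannot be judged without a spread.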
